A study of Danio rerio with 20 samples.

Results

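Annexins and S100 proteins are calcium-binding proteins, and 11 of their genes were measured in zebrafish liver tumors and in normal zebrafish liver. They were taken as every probe whose single gene symbol in the platform annotation begins with anxa or s100, which gave 13 of 16512 probes and 11 of 5356 named genes. Of the 11 genes, 9 were annexins (anxa1b, anxa1c, anxa3b, anxa5b, anxa6, anxa11a, anxa11b, anxa13 and anxa13l) and 2 were S100 genes (s100u and s100v1). The RefSeq table of the zebrafish lists 17 genes with an anxa symbol and 13 with an s100 symbol, so the S100 family in particular is covered in small part. A further 10349 probes carried no symbol, and any annexin or S100 gene among them was not analysed here.

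Annexins bind phospholipids of cell membranes when calcium rises, and they take part in membrane repair, vesicle traffic, exocytosis and the link between membranes and actin. S100 proteins are small proteins with EF-hand calcium-binding loops, most of which act as dimers, and several mammalian S100 proteins bind the amino-terminal tail of an annexin. In the mammalian liver annexins A1 and A2 are known to be scarce in hepatocytes and present in other cells of the organ, while annexin A6 is abundant in hepatocytes. Several S100 proteins of mammals are known for their expression in leukocytes and in tumors.

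The study set carcinogen-induced liver tumors, with 10 arrays, against normal liver, with 10 arrays. On each array the liver sample was labelled with Cy5 and a reference of normal liver RNA with Cy3, with no dye swap. A level above or below the reference in both groups thus cannot be told apart from a dye effect of the probe. Groups were read from the letters T and C of the sample titles, in numbers that match the 10 tumor and 10 normal arrays of the design text. The labels name neither the carcinogen nor the strain, sex or age of the fish, and nothing says whether each array held 1 fish or pooled fish, so p-values reflect the differences among these arrays only, some of which may be technical. Values are log2 ratios to the reference, likely liver sample over reference; the direction is not stated, and every sign would turn if it ran the other way. A whole piece of tissue was measured, so fewer cells of a type and less RNA per cell cannot be told apart.

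Some arrays stood apart by the spread of their values. The interquartile range of all log2 ratios was 0.998 to 1.24 on tumor replicates 1 and 10 and normal replicates 1 and 3, against 0.329 to 0.767 on the other 16 arrays. The share of dim spots, estimated from ratios of small whole numbers, averaged 1.96% on tumor arrays and 5.86% on normal arrays. Among the 13 annexin and S100 probes, 2 dim values fell on tumor arrays and 9 on normal arrays, of 260 values in all. Those on normal arrays were 3 of anxa13l, 2 each of anxa6 and s100v1, and 1 each of anxa1c and anxa13. Those on tumor arrays were 1 each of anxa5b and s100u. Of 11 hepatocyte marker genes 8 were lower in tumors and 0 higher, with a median difference of -2.23 (log2 units), and 2 of the 8 stayed lower past the threshold when the dim share was a covariate.

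Of the 11 genes, 1 rose in tumors and 0 fell (limma, Benjamini-Hochberg adjusted p under 0.05 over 15780 features). That is 9.09% of the genes, while 10.8% of all features passed in either direction and 5.91% passed as higher and 4.94% as lower in tumors, so the share called lay near that of the whole array. The same 1 gene had an unadjusted p under 0.05, where 26.1% of all features did, and the rank-sum test called 1 of 11 where it called 11.8% of features. In all 11 genes the tumor and normal arrays overlapped; groups that did not overlap were found in 0.526% of features. The difference was above 0 in 8 of the 11 genes (72.7%), against 49.1% of all features and 51.2% of named genes, and its median was 0.26, against 0.0076 over all named genes. When probes were tested one by one, 1 of 13 passed, against 12.2% of all probes.

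**Figure D1:**
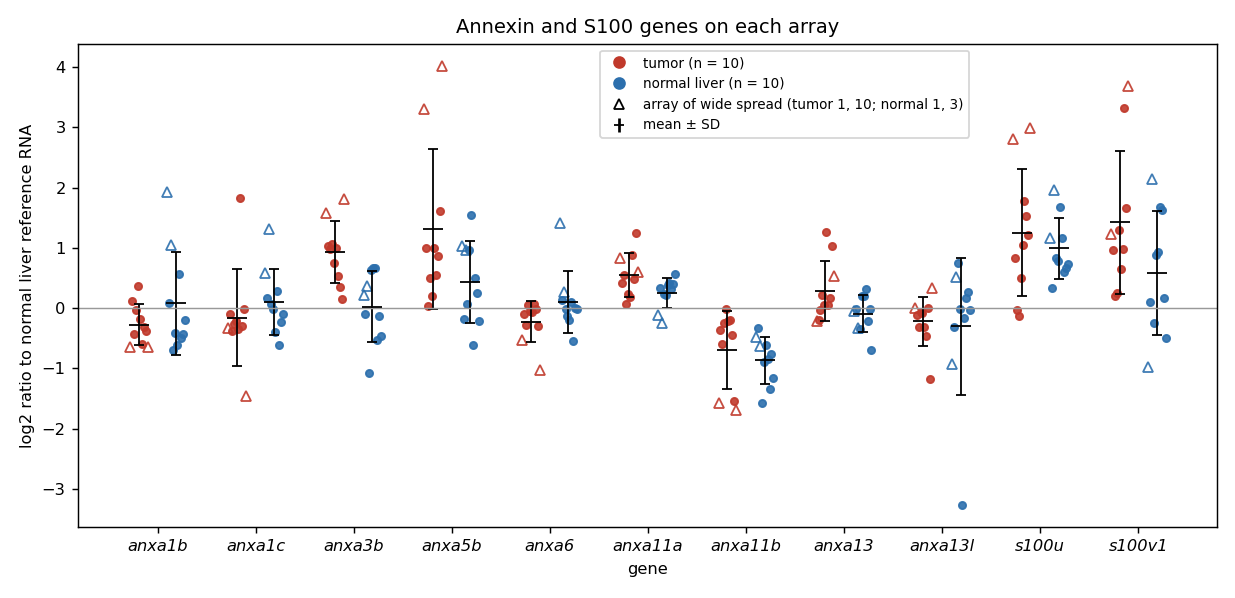
Log2 ratio to the normal liver reference (vertical axis) of each annexin and S100 gene on the 10 tumor arrays (red) and the 10 normal liver arrays (blue), with the mean and SD in black and the 4 arrays of wide spread as open triangles. All 10 tumor values of anxa3b lie above 0, as do those of anxa5b, anxa11a and s100v1. The highest values of anxa5b and s100u are those of tumor replicates 1 and 10.

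The gene that rose was anxa3b, a zebrafish gene for annexin A3, a protein known in mammals from neutrophils and from epithelial tumors. Its log2 ratio lay between 0.15 and 1.81 on the 10 tumor arrays (median 0.99), against -1.07 to 0.67 on the 10 normal arrays (median 0.058). All 10 tumors stood above the normal median and 7 of them above every normal array, while 5 of the 10 normal arrays lay below every tumor. The mean was 0.93 ± 0.51 in tumors and 0.026 ± 0.59 in normal liver (SD, n = 10 each), a difference of 0.90 ± 0.24 (SE), or 1.87-fold with a 95% interval of 1.33 to 2.62 (limma adjusted p = 0.0172). By size it ranked 159 among the 405 named genes that rose, whose median difference was 0.80. Normal liver thus stood close to the reference for this gene, and the tumors above it.

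The call held when any 1 array was left out, with differences of 0.78 to 0.99 and adjusted p up to 0.0328. It was lost in 3 settings that kept the direction: without tumor replicates 1 and 10, which carried the highest values (0.71, limma adjusted p = 0.0516), without all 4 arrays of wide spread (0.77, limma adjusted p = 0.0545), and when the share of dim spots was a covariate (0.88, limma adjusted p = 0.354), a fit in which 55 of all features passed.

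**Figure D2:**
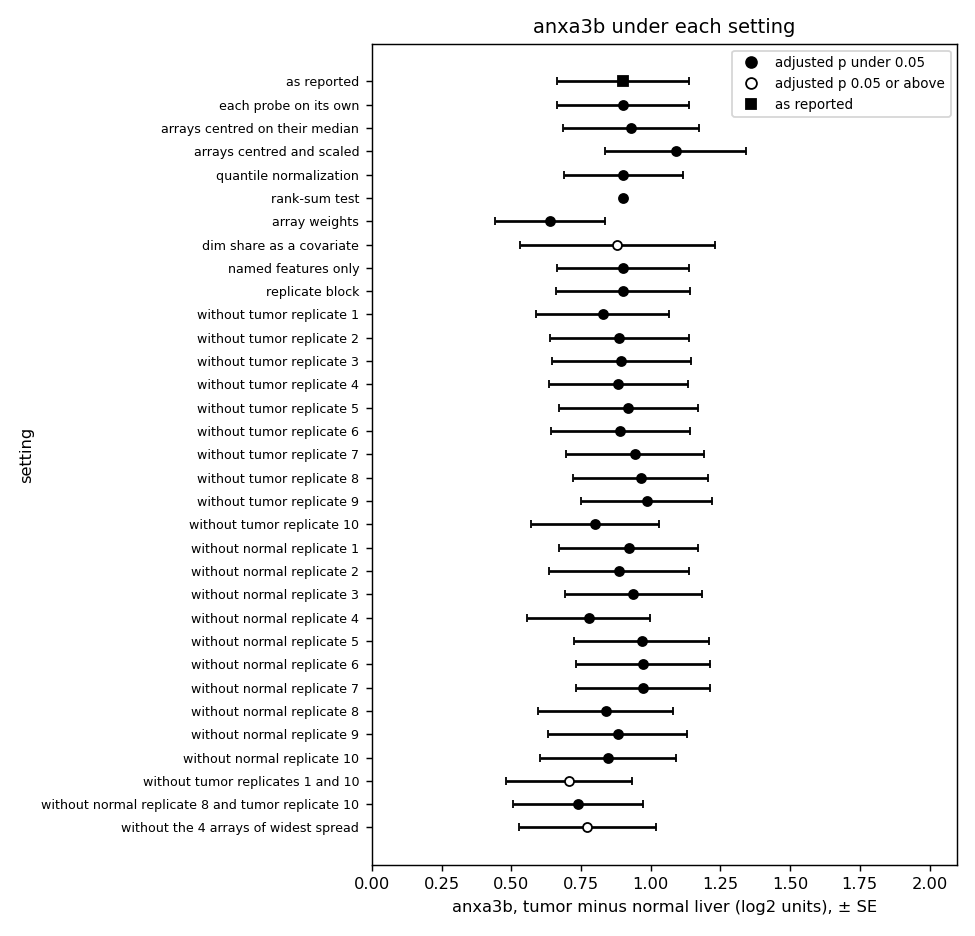
Difference of anxa3b between tumor and normal liver in log2 units with its SE (horizontal axis) as reported and under each other setting (rows); filled symbols mark an adjusted p under 0.05. The values run from 0.64 with array weights to 1.09 after centring and scaling, and 3 settings have open symbols.

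Anxa5b and s100v1 had differences of nearly the same size that did not pass, and that of anxa5b rested in large part on a pair of arrays. Anxa5b encodes annexin A5, which binds phosphatidylserine exposed on the surface of dying cells. It lay between 0.035 and 4.02 on tumor arrays (median 0.93) and between -0.62 and 1.54 on normal arrays (median 0.37). Tumor replicates 10 and 1 stood at 4.02 and 3.30, far above the 1.61 of the next tumor, and 3 of 10 tumors lay above every normal array. The mean was 1.31 ± 1.33 in tumors and 0.43 ± 0.69 in normal liver (SD, n = 10 each), with a difference of 0.88 ± 0.44 (SE, 95% interval -0.032 to 1.78, limma adjusted p = 0.208). Without tumor replicates 1 and 10 the mean of the other 8 tumors was 0.72 ± 0.51 and the difference 0.29. Without all 4 arrays of wide spread, which takes out normal replicates 1 and 3 as well, the difference was 0.43. Without tumor replicate 10 alone the anxa5b difference was 0.57, with array weights 0.24, and when the dim share was a covariate 1.38.

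The first of the S100 genes, s100v1, belongs to a group of S100 genes named from fish, and its function is less known. It lay between 0.20 and 3.68 on tumor arrays (median 1.104) and between -0.98 and 2.13 on normal arrays (median 0.53). The 2 highest tumors were replicates 10 (3.68) and 8 (3.32), the second of which is not an array of wide spread, and the other tumors lay within the range of the normal arrays. The mean was 1.42 ± 1.19 in tumors and 0.58 ± 1.03 in normal liver, and the difference was 0.84 ± 0.46 (95% interval -0.11 to 1.80, limma adjusted p = 0.253). The interval of the difference thus reaches from a small decrease to a 3.48-fold increase.

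The other S100 gene, s100u, stood above the reference in both groups. Its log2 ratio lay between -0.12 and 2.99 on tumor arrays (median 1.13) and between 0.33 and 1.96 on normal arrays (median 0.80). It was above 0 on 8 of 10 tumor arrays and on all 10 normal arrays. Tumor replicates 10 and 1 were highest, at 2.99 and 2.80, and the next tumor stood at 1.77. The mean was 1.25 ± 1.06 in tumors and 0.99 ± 0.51 in normal liver, with a difference of 0.26 ± 0.35 (95% interval -0.46 to 0.98, limma adjusted p = 0.667), which turned to -0.15 without tumor replicates 1 and 10. Neither S100 gene was called by limma or by the rank-sum test, and 0 of the 2 had an unadjusted p under 0.05.

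**Figure D3:**
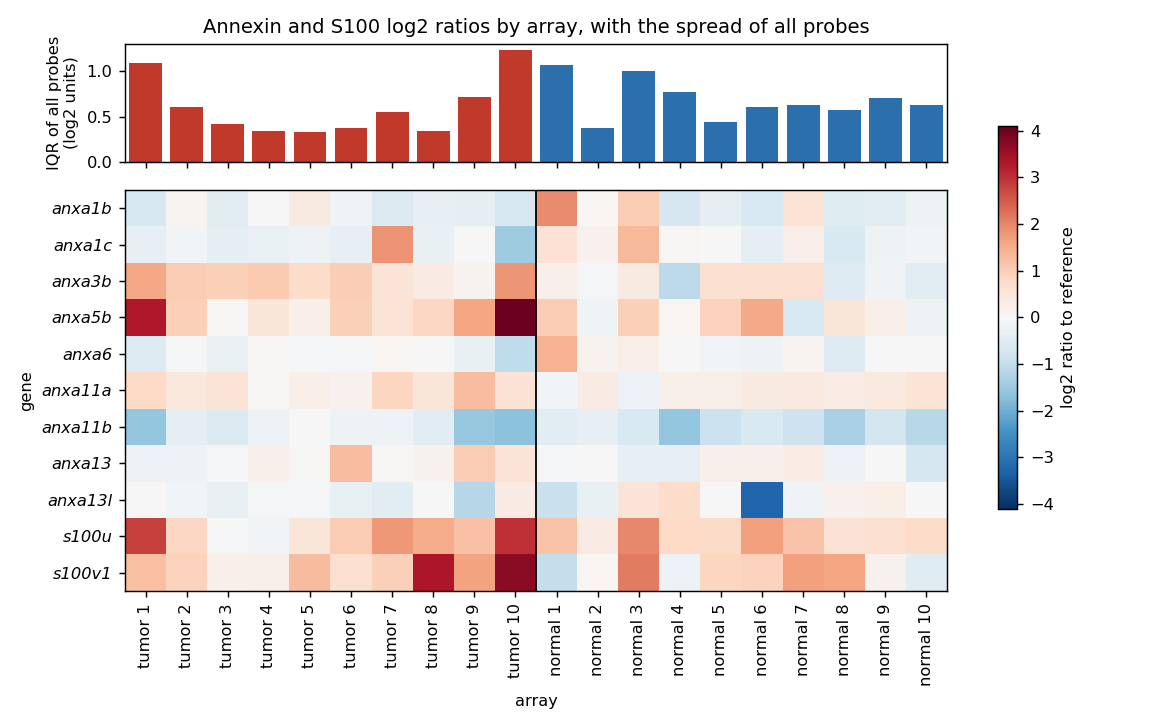
Interquartile range of all log2 ratios of each array (bars, log2 units) above the log2 ratio of each annexin and S100 gene on the same array (colours, red above and blue below the reference), with tumor arrays left of normal arrays. Tumor replicates 1 and 10 have wide ranges (1.09 and 1.24) together with the strongest anxa5b and s100u values.

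Genes for annexin A1, a protein induced by glucocorticoids in mammals and known to limit inflammation, did not pass. Anxa1b lay between -0.65 and 0.36 on tumor arrays (median -0.35) and between -0.69 and 1.93 on normal arrays (median -0.31). Normal replicates 1 and 3, both of wide spread, stood at 1.93 and 1.04, while the other normal arrays reached 0.57 at most. The difference was -0.35 ± 0.28 (95% interval -0.92 to 0.22, limma adjusted p = 0.439), and it turned to 0.094 without the 4 arrays of wide spread. Anxa1c lay between -1.45 and 1.83 on tumor arrays (median -0.28) and between -0.62 and 1.32 on normal arrays (median 0.023). On 9 of 10 tumors it was below the normal median, and tumor replicate 7 alone stood high, at 1.83. Its difference was -0.26 ± 0.29 (95% interval -0.86 to 0.34, limma adjusted p = 0.600).

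Annexin A6, which carries more annexin repeats than other members of the family, is encoded by anxa6. This gene lay between -1.03 and 0.073 on tumor arrays (median -0.078) and between -0.54 and 1.41 on normal arrays (median -0.0037). The lowest array was tumor replicate 10, and the highest, normal replicate 1, stood far above the next normal array at 0.27. Of the 10 tumors, 8 lay below the normal median. The difference of -0.33 ± 0.19 did not pass (95% interval -0.72 to 0.072, limma adjusted p = 0.291), and without the 4 arrays of wide spread it was -0.0015.

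Annexin A11 is known for a long amino-terminal region and for a role in RNA granule transport in mammals. Anxa11a lay between 0.063 and 1.25 on tumor arrays (median 0.52) and between -0.26 and 0.56 on normal arrays (median 0.32). All 10 tumors and 8 of 10 normal arrays were above the reference, and 4 tumors exceeded every normal array. Its difference was 0.30 ± 0.15 (95% interval -0.0038 to 0.60, limma adjusted p = 0.197). The anxa11a difference was 0.15 without the 4 arrays of wide spread, 0.067 with array weights and 0.56 when the dim share was a covariate. The 2 probes of anxa11a gave differences of 0.24 ± 0.13 and 0.36 ± 0.19, and their deviations from the group means correlated at 0.56 over the 20 arrays.

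Anxa11b was the one member below the reference on all 20 arrays. It lay between -1.69 and -0.017 on tumor arrays (median -0.41) and between -1.58 and -0.33 on normal arrays (median -0.81). The tumors fell into 3 low arrays, replicates 10, 1 and 9 at -1.69, -1.57 and -1.55, and 7 others at -0.60 or higher. The difference was 0.17 ± 0.23 (95% interval -0.31 to 0.65, limma adjusted p = 0.673). With array weights it passed as higher in tumors (0.48, limma adjusted p = 0.0364), and its value was -0.20 when the dim share was a covariate.

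Annexin A13 is known as an annexin of intestinal and kidney epithelium in mammals. Anxa13 lay between -0.22 and 1.26 on tumor arrays (median 0.11) and between -0.69 and 0.31 on normal arrays (median -0.034). Tumor replicates 6, 9 and 10, at 1.26, 1.03 and 0.53, exceeded every normal array, while the other 7 tumors lay within the normal range. The difference was 0.38 ± 0.19 (95% interval -0.0044 to 0.77, limma adjusted p = 0.197). Its 2 probes gave 0.27 ± 0.17 and 0.49 ± 0.24, and correlated at 0.63 over the deviations from the group means. They were farthest apart on tumor replicate 6, by 1.06.

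The related gene anxa13l lay between -1.18 and 0.33 on tumor arrays (median -0.096) and between -3.26 and 0.75 on normal arrays (median -0.018). Normal replicate 6 alone was far below the rest, at -3.26, and this was one of the dim values, as were 2 further normal values of the probe. The difference was 0.081 ± 0.36 (95% interval -0.66 to 0.82, limma adjusted p = 0.910) and turned to -0.25 without that array.

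**Figure D4:**
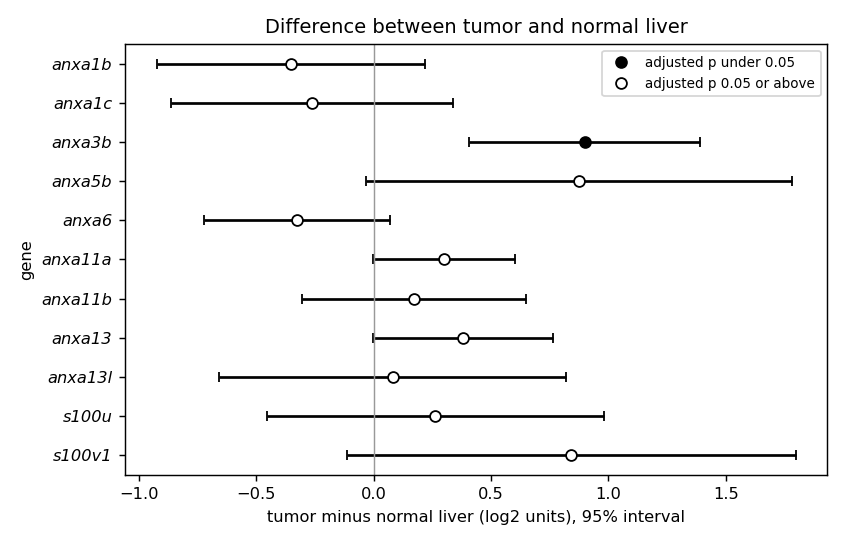
Difference between tumor and normal liver in log2 units with its 95% interval (horizontal axis) for each annexin and S100 gene (rows); filled symbols mark an adjusted p under 0.05. The interval of anxa3b, 0.41 to 1.39, is the one that passed, and those of anxa11a and anxa13 begin just below 0, at -0.0038 and -0.0044.

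Paralogues were compared for a difference in response. The number of pairs was 3, and the third, anxa13 with anxa13l, was added after its values were seen. The tumor minus normal difference of anxa1b less that of anxa1c was -0.090 (95% interval -0.79 to 0.61). For anxa11a less anxa11b it was 0.13 (95% interval -0.58 to 0.84), and for anxa13 less anxa13l it was 0.30 (95% interval -0.71 to 1.31). No pair passed (two-sided permutation test with 100000 resamples, adjusted p = 0.814 for each pair over the 3 pairs, n = 10 per group), and each of the 3 intervals spans 0.

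Correlations between the genes were spread around 0. After subtraction of the group means, the 55 pairs of genes had a median correlation of -0.0033 over the 20 arrays, from -0.59 to 0.81. The highest were anxa5b with s100u (0.81), anxa1b with anxa6 (0.79), anxa11b with anxa6 (0.62), anxa1c with anxa6 (0.59), s100u with s100v1 (0.58) and anxa3b with anxa5b (0.51). Genes of 1 array share its spread, and without the 4 wide arrays the 6 values were 0.47, 0.43, 0.54, 0.48, 0.53 and 0.095. After centring and scaling of the arrays they were 0.51, 0.61, 0.68, 0.45, 0.65 and 0.10. The mean over the 9 annexins lay between -0.052 and 0.29 on tumor arrays and between -0.31 and 0.40 on normal arrays, and the mean over both S100 genes between 0.062 and 3.34 on tumor arrays and between 0.095 and 2.05 on normal arrays, so both families overlapped between the groups.

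Among 5345 other named genes, those most like anxa3b over the same deviations were cxcr4b, a chemokine receptor (r = 0.87), tmx1, a thioredoxin-like membrane protein (0.80), the actin-binding profilin pfn1 (0.77) and si:ch211-133n4.4 (0.77). Without the 4 wide arrays their correlations were 0.85, 0.74, 0.67 and 0.70, and after centring and scaling 0.82, 0.37, 0.69 and 0.49. Of these, cxcr4b itself had a difference of 0.093 ± 0.26 between tumor and normal liver (limma adjusted p = 0.850). Most like s100v1 were ppp2r2ab, a regulatory subunit of protein phosphatase 2A (0.79), zgc:66448 (0.79), igbp1, which binds phosphatase catalytic subunits (0.76), and the kinesin kifc3 (0.75), with 0.60, 0.67, 0.85 and 0.61 without the wide arrays and 0.68, 0.45, 0.87 and 0.48 after centring and scaling. These are the highest of many correlations and a description of 20 arrays.

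Markers of other cells that a piece of liver can hold were read beside anxa3b. For all marker lists, the share to set beside the counts is the 12.7% of named genes that passed in either direction. Of 12 leukocyte genes limma called 0, the rank-sum test 0, and 1 had an unadjusted p under 0.05, mpeg1.1 of macrophages (1.19 ± 0.44, limma adjusted p = 0.0858); the next was cd74a (0.84 ± 0.42, limma adjusted p = 0.213). The mean log2 ratio of this list lay between 0.060 and 2.40 on tumor arrays and between 0.031 and 1.44 on normal arrays, and it correlated with anxa3b over the deviations from the group means at 0.75, or 0.67 after centring and scaling. Cxcr4b, named above for its correlation with anxa3b, is on this list, so these correlations are not separate. Without tumor replicate 3 limma called 1 leukocyte gene. The difference was above 0 in 8 of the 12 leukocyte genes. It was below 0 in mpx (-0.35), rag1 (-0.22), lyz (-0.20) and spi1b (-0.032), none of which passed. Among 15 genes of epithelia and bile duct, 3 rose and 0 fell, led by epcam (1.32 ± 0.33) and notch3 (0.63 ± 0.18), and the list mean lay between 0.13 and 1.50 on tumor arrays and between -0.51 and 1.08 on normal arrays, with a correlation of 0.46 with anxa3b, or 0.25 after centring and scaling. The difference was above 0 in 10 of the 15 genes and below 0 in cldn3c, krt5, agr2, krt4 and evpla. Krt8 (0.18 ± 0.22) and sox9b (0.073 ± 0.24) did not pass. The count of 3 became 1 without tumor replicate 2, 5 or 6 or normal replicate 9, and 5 without normal replicate 3. Notch3 missed the threshold without any 1 of 6 arrays (limma adjusted p up to 0.0562). The third call, lgals3a, was lost without any 1 of 9 arrays (limma adjusted p up to 0.0661).

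Of 16 genes of fibroblasts, stellate cells and matrix 6 rose and 1 fell, led by timp2a (1.099 ± 0.28) and postna (0.63 ± 0.16); the list mean lay between 0.22 and 2.36 on tumor arrays and between -0.12 and 0.70 on normal arrays, with a correlation of 0.64, or 0.32 after centring and scaling. The difference was above 0 in 13 of the 16 genes and below 0 in vim, hand2 and desma. Col1a1a, col1a1b, col1a2, dcn and pdgfra were above 0 and did not pass. The 1 decrease, that of vim (-0.71, SE 0.21, limma adjusted p = 0.0352), was lost without any 1 of 12 arrays. Of the 6 increases, 1 was also lost in 12 such fits (limma adjusted p up to 0.0817). The list had 5 or 6 increases when 1 array was left out, and 3 without the 4 arrays of wide spread. Of 11 ovary genes 2 rose and 1 fell, but 0 rose without any 1 of 15 arrays, and 7 rose without normal replicate 8. Of 7 erythrocyte genes 1 fell, against 0 without any 1 of 13 arrays and 3 without tumor replicate 4 or 9. Of 5 exocrine pancreas genes limma and the rank-sum test called 0, with 4 at an unadjusted p under 0.05; limma called 2 as lower in tumors without tumor replicate 1 or 6 or normal replicate 4, and 4 without normal replicate 10. The pancreas list mean correlated with anxa3b at 0.55, or 0.34 after centring and scaling. For the lists of hepatocytes, endothelium, erythrocytes and ovary the correlations with anxa3b were -0.49, -0.50, -0.27 and 0.0071. After centring and scaling these were -0.57, -0.078, 0.069 and -0.21. Of 5 endothelial genes both tests called 0, with 1 at an unadjusted p under 0.05. The part of these cells in the anxa3b result was not tested.

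Genes listed as annexin partners or for calcium-dependent membrane repair were read next, as the membrane repair list. Of its 26 genes 10 were measured, and dysf, myof and trim72 were not. Copines, calpains and transglutaminases were also on it. Of 10 measured genes of this list 5 rose and 0 fell, and the median difference was 0.61, against 0.0076 over all named genes. Of all named genes 12.7% passed in either direction. Cpne1, a copine that binds membranes in the presence of calcium, lay between 0.31 and 1.58 on tumor arrays (median 0.90) and between -0.51 and 0.44 on normal arrays (median 0.18), a difference of 0.84 ± 0.16 (limma adjusted p = 0.00221). The calpain protease capn2a rose by 1.24 ± 0.28, or 2.36-fold (limma adjusted p = 0.00675), and it still passed when the dim share was a covariate (limma adjusted p = 0.0258). The calpain small subunit capns1b rose by 0.68 ± 0.18, the ESCRT component tsg101a by 0.54 ± 0.14 and the ESCRT adaptor pdcd6ip by 0.69 ± 0.18. Ahnak, a large scaffold that binds annexin A2 in mammals, was measured and did not pass. With the dim share as a covariate 1 of the 10 passed.

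**Figure D5:**
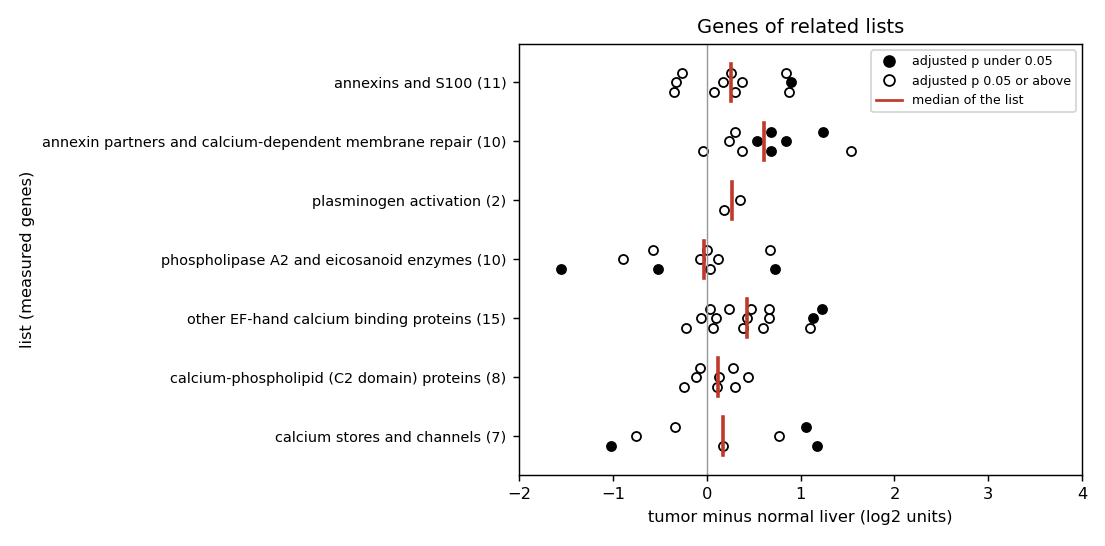
Difference between tumor and normal liver in log2 units (horizontal axis) of each gene of the annexin and S100 families and of 6 related lists (rows, with the number of measured genes); filled symbols mark an adjusted p under 0.05 and red lines the medians. The membrane repair list has its median at 0.61 and 5 filled symbols of 10, and the annexins and S100 genes have 1 of 11.

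Other EF-hand proteins gave 2 increases and 0 decreases among 15 measured genes, with a median difference of 0.43. That count lay near the share of all named genes that passed in either direction (12.7%). It leaves out the calpain genes capn2a and capns1b, whose proteins also have EF-hands. Both were counted as increases in the membrane repair list. Calm3b, 1 of the calmodulin genes, lay between 0.30 and 1.87 on tumor arrays (median 1.41) and between -0.50 and 0.64 on normal arrays (median 0.090), and rose by 1.23 ± 0.21, or 2.34-fold (limma adjusted p = 0.000883). Myl9b, a regulatory light chain of myosin, rose by 1.14 ± 0.27 (limma adjusted p = 0.00996). Of 7 genes of calcium stores and channels 2 rose and 1 fell: the endoplasmic reticulum calcium pump atp2a2b rose by 1.17 ± 0.21 (limma adjusted p = 0.00154), the calcium-binding chaperone canx rose (limma adjusted p = 0.000706), and the outer mitochondrial channel vdac3 fell by 1.02 (SE 0.29, limma adjusted p = 0.0278), a call lost without tumor replicate 1 or 7 (limma adjusted p = 0.0507 and 0.0539). Of 8 listed proteins with C2 domains limma called 0, the rank-sum test 0, and 1 had an unadjusted p under 0.05. That was the synaptotagmin syt1a (0.44 ± 0.16, limma adjusted p = 0.0776). Cpne1, called higher, and pla2g4aa, called lower, also encode proteins with C2 domains and were counted in other lists.

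Annexin A1 was described early as an inhibitor of phospholipase A2. Genes of that enzyme family and of eicosanoid synthesis had calls in both directions. Of 10 measured genes of the list 1 rose and 2 fell, with a median difference of -0.032, where 12.7% of all named genes passed in either direction. The list also holds nr3c1, tsc22d3 and fkbp5, which are neither phospholipases nor enzymes of eicosanoid synthesis. They are counted among the 10, and none of them passed. The prostaglandin D synthase gene ptgdsa lay between -2.63 and 0.059 on tumor arrays (median -0.79) and between -0.090 and 1.20 on normal arrays (median 0.30), and it fell by 1.55 (SE 0.30, limma adjusted p = 0.00201). The cytosolic phospholipase A2 gene pla2g4aa fell by 0.51 (SE 0.16, limma adjusted p = 0.0364), and it missed the threshold without any 1 of 9 arrays (limma adjusted p up to 0.0705). Ptges3a, a cochaperone also known as a prostaglandin E synthase, rose by 0.72 ± 0.16 (limma adjusted p = 0.00508). For plasminogen activation, which annexin A2 promotes in mammals, 2 listed genes were measured, krt8 and mmp2; limma and the rank-sum test called 0 of them and 0 had an unadjusted p under 0.05, with krt8 at 0.18 ± 0.22 (limma adjusted p = 0.634) the member of smaller p.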

How the data were processed

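Liver RNA of zebrafish was measured on 20 two-channel arrays. The deposited table holds 1 log2 ratio per probe and array. Not given in the sources used here is how spots were filtered, normalized or corrected for background. The base of 2 was read from the values, since the steps between repeated values of an array fit whole-number ratios on that scale. The table had 0 missing values and no spot intensities. Array medians lay between -0.139 and 0.0341 on tumor arrays and between -0.141 and 0.205 on normal arrays.

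Of 16512 probes 6088 (36.9%) had 1 symbol, 75 several and 10349 none; RefSeq (assembly GRCz12tu) updated 1 symbol and was used for names only. Probes of 1 symbol were averaged, giving 15780 features. Tumor and normal arrays were compared in R 4.3.3 with limma 3.58.1 (lmFit, eBayes); p-values were adjusted over all features by Benjamini-Hochberg, at a threshold of 0.05. Spots counted as dim where, less each array's constant, the value matched a ratio of whole numbers not above 10 on the log2 scale (tolerance 0.00011). Paralogue pairs were compared with permutation tests in scipy 1.17.1. The fit was tested on simulated normal values, independent and of equal spread on all arrays. The simulation thus did not cover the unequal spread or the dim spots of these arrays.

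All members were named; other genes were named by smallest p within each list (up to 4 called, or the first where 0 passed; up to 2 per marker list), and those of like pattern by the 4 highest correlations. Mmp2, ahnak and pdcd6ip were named after their values were seen. The same holds for nr3c1, tsc22d3, fkbp5, vim, hand2, desma, col1a1a, col1a1b, col1a2, dcn and pdgfra. It also holds for mpx, rag1, lyz, spi1b, cldn3c, krt5, agr2, krt4, evpla, sox9b and lgals3a. The members and lists were chosen with earlier results of these data known. Alternatives were other scalings, tests, weights, covariates and subsets of arrays. Replicate numbers were not used to pair the arrays in the main comparison.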

Additional observations from a re-analysis of the deposited data

Results flagged for a closer look

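Each of the 11 genes was checked in both groups for 1 array far from the other 9, by the gap to the nearest array over the whole range (above 0.466 for 10 arrays). Of 22 checks 4 stood out. The rate of about 1 in 20 expected by chance holds for independent, normally distributed values. These checks shared the same arrays, of unequal spread, so the count cannot be set against it. Anxa13l stood at -1.18 on tumor replicate 9, with the next tumor at -0.47, and at -3.26 on normal replicate 6, with the next normal array at -0.93. Anxa1c stood at 1.83 on tumor replicate 7, with the next tumor at -0.01. Anxa6 stood at 1.41 on normal replicate 1, with the next normal array at 0.27. Without the array concerned, the differences between tumor and normal liver were 0.19, -0.25, -0.48 and -0.18 (limma adjusted p = 0.775, 0.456, 0.182 and 0.455), none past the threshold.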

How the results depend on the processing

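Of 32 alternatives, 28 left the count of annexin and S100 genes called at 1, leaving out any single array among them (1 to 1). The count was 2 with array weights, where anxa11b passed as well, and 0 when the dim share was a covariate, without tumor replicates 1 and 10, and without the 4 arrays of wide spread, an alternative chosen after seeing the data. Over all features 1712 passed, against 1358 to 2148 without any 1 array, 2736 after centring and scaling, 3391 with array weights, 55 with the dim share as a covariate and 762 among named features only. With the replicate number as a block 1253 passed and anxa3b was still called (0.90, limma adjusted p = 0.0382). Same-numbered arrays correlated between -0.15 and 0.12 over deviations from the group means, and 1 of 10 tumor arrays matched its own number best. Paired arrays could also correlate this weakly, so pairing by number was not excluded.

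Directions of genes that did not pass turned in some settings. With the dim share as a covariate anxa11b was -0.20, anxa13l -0.47, zgc:66448 0.23 and kifc3 0.13. With array weights anxa1b was 0.020, s100u -0.045 and cxcr4b -0.22. Without tumor replicates 1 and 10 anxa13l was -0.015, s100u -0.15, cxcr4b -0.066 and the paralogue difference anxa11a less anxa11b -0.15. Without the 4 arrays of wide spread anxa1b was 0.094, anxa1c 0.13, s100u -0.0034, cxcr4b -0.015 and anxa11a less anxa11b -0.33. Without normal replicate 8 and tumor replicate 10 cxcr4b was -0.075. Leaving out 1 array at a time, anxa13l ran from -0.25 to 0.20, cxcr4b from -0.046 to 0.21, anxa1b less anxa1c from -0.19 to 0.17 and anxa11a less anxa11b from -0.045 to 0.24. The cause was not tested.

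The membrane repair list had 1 gene called with the dim share as a covariate, and the lists of phospholipase A2 genes, other EF-hand proteins and calcium stores had 0. In that fit 2 of 11 hepatocyte markers were called, and 0 genes of the other 7 marker lists. Other EF-hand proteins had 4 after centring and scaling and 5 with array weights. Calcium stores had 5 after centring and scaling, with quantile normalization and among named features only, and 2 to 5 without 1 array. C2 domain proteins had 2 with array weights and 0 to 1 without 1 array. Signal over background cannot be read from ratios, so dim probes could not be filtered, and the number of arrays limits the precision.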
